A study of Mus musculus with 6 samples.

Results

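Secreted Wnt antagonists and canonical Wnt target genes were examined in the optic fissure of mouse embryos, 10 genes in all: the antagonists Dkk1, Dkk2, Dkk3, Sfrp1, Sfrp2 and Sfrp5, the ligand Wnt2b, and the targets Axin2, Lef1 and Tnfrsf19. Every probe set annotated with 1 of these symbols and no other was taken, which gave 21 of the 45101 probe sets on the array. All 10 genes had at least 1 probe set, of 18194 genes that had one. The fissure is a groove along the underside of the optic cup that must close for the eye to form. Tissue was taken by laser microdissection at E11.5 from C57BL/6J embryos. The 3 FGFR mutant samples were Six3Cre+;Fgfr1fx/fx;Fgfr2fx/fx, and the 3 control samples were Six3Cre-;Fgfr1fx/fx;Fgfr2fx/fx, so both groups carried floxed alleles of the FGF receptors Fgfr1 and Fgfr2 and only the mutants carried the Cre. Six3Cre drives recombination in the early eye field, so cells from outside it that were caught in the dissection would keep their receptors. Each sample was 1 Affymetrix array, and the numbers 8711, 9216 and 9266 each named 1 mutant and 1 control array. Separate embryos or pools are not named in the labels, so the spread behind every p-value is that of these samples and may be technical, and the number of arrays limits the precision.

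In canonical Wnt signalling, a Wnt ligand binds a frizzled receptor and an Lrp5 or Lrp6 co-receptor, beta-catenin is spared from breakdown, and it enters the nucleus to act with TCF and LEF factors. Secreted antagonists act before the receptor: Sfrp proteins resemble the ligand-binding part of frizzled and bind Wnts, while Dkk1 occupies the co-receptors. In the mouse eye, beta-catenin signalling is needed for the pigment epithelium to keep its fate, and FGF signalling favours the neural retina.

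Whether the arrays fit their labels was read from a few genes. The brightest Fgfr1 probe set averaged 88.5 ± 45.9 intensity units in the mutants and 192 ± 88.2 in the controls, and the brightest Fgfr2 probe set averaged 1038 ± 243 in the mutants and 380 ± 83.7 in the controls (SD, n = 3 each). The place of these probes relative to the floxed exons was not analysed here, so they do not check the genotypes. Of 6 markers of the ventral optic cup, none was at or under the filter level of 15.1 in all arrays, and their summed intensity was 5252 to 5770 in the mutants and 5879 to 6696 in the controls. Most of that sum was Nr2f1, and 2 of the 6 markers had a positive log2 difference. Vax1 had 322.9, 245.3 and 80.1 in the mutants, against 732.9, 595.4 and 559.0 in the controls, so the sum does not stand for each marker. The mutant 8711 array stood apart, with a median intensity of 18.1 against 28.7 to 34.6 in the other arrays, a 3 prime to 5 prime ratio of 93.6 for the Gapdh control probe sets against at most 15 in the others, and a mean correlation with the other arrays of 0.836 against 0.917 to 0.932. Mutant 8711 was the lowest of the 6 arrays for 38.4% of all tested probe sets and the highest for 23.9%, so it was extreme in both directions. Member differences that it moves by over 1.5 times are given with and without it, as are medians and counts of gene lists.

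RefSeq promoters (build GRCm38.p6, 250 bases before to 50 after a transcript start) were held for 8 of the 10 genes (not Sfrp1 or Dkk3), 12 windows in all. Those of Tnfrsf19 and Dkk1 are shown because they hold the only matches to the motif below, and that of Sfrp2, with no match, because its mean was lower in the mutants. They are printed 5′ to 3′ on the strand of the gene. Capitals mark a match to a TCF/LEF motif, searched as CTTTGAT or CTTTGAA on both strands.
Tnfrsf19, chr14:61037938-61038237, minus strand: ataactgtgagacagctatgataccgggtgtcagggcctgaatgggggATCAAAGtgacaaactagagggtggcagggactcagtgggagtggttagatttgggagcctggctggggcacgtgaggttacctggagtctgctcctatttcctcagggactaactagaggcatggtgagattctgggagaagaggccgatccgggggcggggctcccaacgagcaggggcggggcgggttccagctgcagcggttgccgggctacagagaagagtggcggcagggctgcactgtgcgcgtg
Dkk1, chr19:30549447-30549746, minus strand: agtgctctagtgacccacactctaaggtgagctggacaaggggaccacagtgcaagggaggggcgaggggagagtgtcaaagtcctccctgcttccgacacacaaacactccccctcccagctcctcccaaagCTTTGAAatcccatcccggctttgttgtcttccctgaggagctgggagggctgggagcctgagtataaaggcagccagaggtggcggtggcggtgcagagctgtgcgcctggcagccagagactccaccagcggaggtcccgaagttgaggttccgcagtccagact
Sfrp2, chr3:83766071-83766370, plus strand: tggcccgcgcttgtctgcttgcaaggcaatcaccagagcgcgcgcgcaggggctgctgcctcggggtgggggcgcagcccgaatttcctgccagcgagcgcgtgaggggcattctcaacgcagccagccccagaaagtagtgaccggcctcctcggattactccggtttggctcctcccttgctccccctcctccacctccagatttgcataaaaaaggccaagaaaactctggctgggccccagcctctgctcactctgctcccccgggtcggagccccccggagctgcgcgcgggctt
The Tnfrsf19 match began 202 bases before the start, on the opposite strand, and the window of its other annotated start had no match. The Dkk1 match began 117 bases before the start. These were the 2 of 12 windows with a match, and 8.65% of all 32851 promoter windows had one. The letters CCGGAAGT, a long form of the site bound by ETS factors that act downstream of FGF, were searched on both strands. They occurred in 0 of the 12 windows, against 3.89% of all windows, and shorter forms of the site were not searched. A match is a description of the letters, and no match says only that these letters are not in the window.

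Of the 21 probe sets, 15 passed a filter on low mean intensity and were tested, for 8 of the 10 genes. The other 6, among them both Sfrp5 probe sets and the only Wnt2b probe set, lay below it. Differences are log2(intensity + 1.7) in the mutants minus that in the controls, which understates changes of dim genes, and p-values are from limma with Benjamini-Hochberg adjustment over all 27022 probe sets tested. No member probe set passed an adjusted p of 0.05, and 0.0% of all tested probe sets did (0 of 27022). The smallest adjusted p among the members was 0.506. At an unadjusted p under 0.05, 4 of the 15 had higher and 2 lower values in the mutants, where 3.02% of all tested probe sets were higher and 2.55% lower, 5.57% in all. The mutant and control values did not overlap for 5 probe sets that were higher and 2 that were lower, where the shares over all tested probe sets were 7.08% and 6.39%, 13.5% in all. Probe sets of 1 gene share their transcript, and counted by the brightest probe set of each gene there was 1 higher gene (Tnfrsf19) and 1 lower gene (Sfrp2) of 8 at that unadjusted level, beside 4.4% and 2.52% of 12282 genes. The genes were chosen with earlier results of these data known, so these counts describe the members and are not independent evidence.

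**Figure D1:**
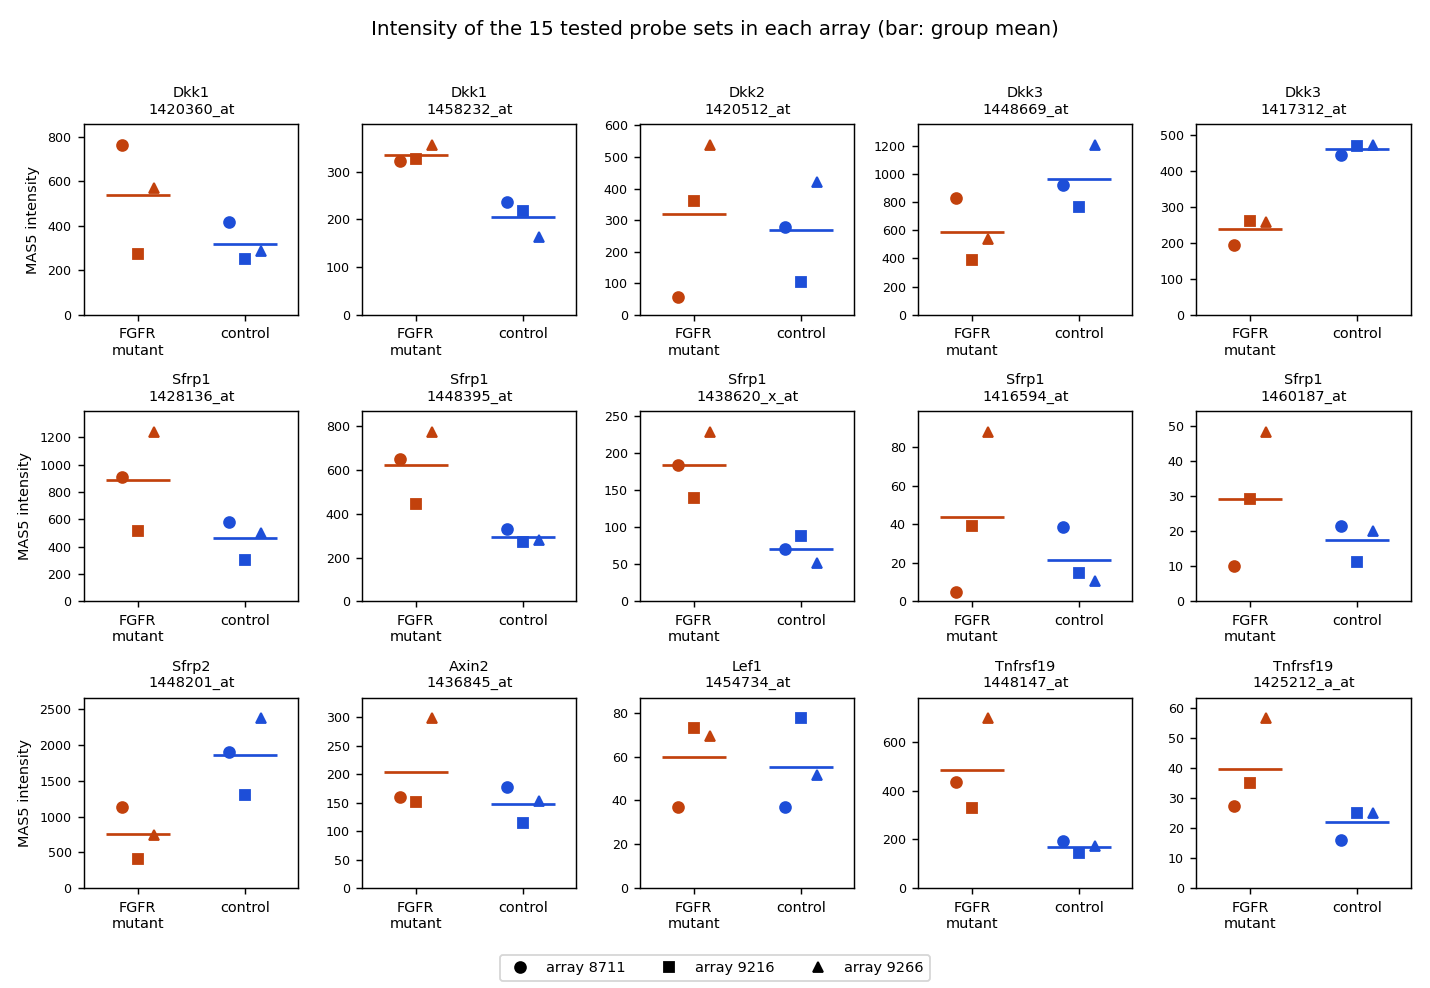
MAS5 intensity (vertical axis, linear, starting at 0) of the 15 tested probe sets in the 3 FGFR mutant and 3 control arrays, with the array number as the symbol and the group mean as a bar. Sfrp1 (3 brightest probe sets) and Tnfrsf19 have higher means in the mutants, Sfrp2 and Dkk3 lower ones, and Dkk2 and Lef1 overlap throughout.

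Among the Sfrp genes, mean values in the mutants were above those in the controls for Sfrp1 and below them for Sfrp2, and neither gene passed adjustment. Sfrp1, a Wnt-binding antagonist, had 5 tested probe sets. Its brightest, 1428136_at, had intensities of 907.7, 515.2 and 1242.4 in mutant arrays 8711, 9216 and 9266, and of 581.1, 300.2 and 502.9 in the controls in the same order. Only mutant 9216 fell within the range of the controls. The means were 888 ± 364 in the mutants and 461 ± 145 in the controls (SD, n = 3 each), a log2 difference of 0.91 (SE 0.39, limma adjusted p = 0.852).

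The next Sfrp1 probe set, 1448395_at, had 652.2, 443.4 and 776.4 in the mutants, against 331.8, 273.8 and 282.7 in the controls. Every mutant array was above every control array, with a log2 difference of 1.04 (SE 0.26, limma adjusted p = 0.561). Another, 1438620_x_at, had 183.8, 140.1 and 228.9 in the mutants and 70.7, 88.8 and 52.1 in the controls, again with the groups apart. Its log2 difference was 1.37 (SE 0.32, limma adjusted p = 0.531). The other Sfrp1 probe sets were dim, with mutant means of 44.0 and 29.2 and control means of 21.3 and 17.6, and had log2 differences of 0.52 and 0.49 with overlapping groups. In mutant 8711 these dim probe sets read 4.9 and 10.0, below all controls, whereas the 3 brighter ones were above all controls in that array. Without mutant 8711 the dim probe sets had differences of 1.59 and 1.07.

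Sfrp2, a relative of Sfrp1 that binds Wnts too, had 1 probe set. It read 1140.8, 404.6 and 748.4 in the mutants, against 1907.7, 1302.1 and 2372.4 in the controls. All 3 mutant values were below all 3 control values. The means were 765 ± 368 in the mutants and 1861 ± 537 in the controls (SD, n = 3 each), a ratio of 0.411 and a log2 difference of -1.36 (SE 0.41, limma adjusted p = 0.713). The difference was -1.71 without mutant 8711 and -0.97 without mutant 9216.

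The log2 ratio of Sfrp1 to Sfrp2 within an array does not depend on the scaling between arrays. Relative to its control mean, this ratio of the brightest probe sets was 1.69, 2.37 and 2.75 in the mutants and 0.31, -0.09 and -0.22 in the controls. The lowest mutant ratio lay well above the highest control ratio. The ratio pairs the gene with the higher mutant values and the gene with the lower ones, so it restates those values without dependence on scaling and was given no test.

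Sfrp5, another member of the family, was dim throughout and was not tested. Its probe set 1423023_at read 2.4, 11.8 and 5.1 in the mutants, against 21.5, 17.4 and 16.4 in the controls. Those groups were apart, although only the control values exceeded the filter level of 15.1. The other Sfrp5 probe set read 9.6, 31.1 and 19.1 in the mutants and 11.9, 35.7 and 1.3 in the controls, and the groups overlapped. With no filter on low values the log2 differences were -1.47 and 0.78, with adjusted p of 0.871 and 0.898 in limma, so the 2 probe sets of Sfrp5 did not share a direction.

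Among the Dkk genes, mean log2 values in the mutants were higher for Dkk1, lower for Dkk3 and nearly equal to the controls for Dkk2. Dkk1, which blocks the Lrp5 and Lrp6 co-receptors, had 2 tested probe sets. The brighter, 1420360_at, had 763.1, 273.9 and 570.5 in the mutants and 417.2, 250.5 and 284.3 in the controls. Mutant 9216 lay within the controls and the other mutants above them. Its log2 difference was 0.67 (SE 0.41, limma adjusted p = 0.852), or 0.35 without mutant 8711. The dimmer, 1458232_at, had 321.7, 327.2 and 356.2 in the mutants, against 236.3, 218.5 and 162.0 in the controls. Here the groups were apart and the mutant arrays close to each other, with means of 335 ± 18.5 in the mutants and 206 ± 38.8 in the controls (SD, n = 3 each) and a log2 difference of 0.72 (SE 0.23, limma adjusted p = 0.742).

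Dkk3, a divergent member of the Dkk family, had 2 tested probe sets, both lower in the mutants on average. The brighter, 1448669_at, had 830.5, 386.4 and 535.4 in the mutants and 919.7, 761.5 and 1206.0 in the controls, with mutant 8711 inside the control range. Its log2 difference was -0.76 (SE 0.32, limma adjusted p = 0.852), and -1.05 without mutant 8711. The other, 1417312_at, had 195.5, 261.1 and 259.8 in the mutants, against 445.3, 469.6 and 473.6 in the controls. These groups were far apart for their spread, with means of 239 ± 37.5 in the mutants and 463 ± 15.3 in the controls (SD, n = 3 each). The log2 difference was -0.96 (SE 0.21, limma adjusted p = 0.506), which ranked 126 of 27022 by p.

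Dkk2, an antagonist or weak agonist depending on the cell, is expressed in the mesenchyme around the eye. It read 56.4, 361.7 and 538.5 in the mutants and 277.1, 103.8 and 420.9 in the controls. The groups overlapped fully, and mutant 8711 and control 9216 were the low arrays. The log2 difference was -0.04 (SE 0.91, limma adjusted p = 0.994), and it was 0.94 without mutant 8711. None of the 17 measured periocular mesenchyme markers was at or under the filter level in all arrays, and 15 of the 16 tested had a positive difference. Their summed intensity was 3503, 4013 and 4397 in the mutants and 3103, 1532 and 3135 in the controls. Control 9216 was thus the low array for these markers too, but mutant 8711, the lowest for Dkk2, was above all controls for them. The part of mesenchyme in the Dkk2 values was not tested.

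**Figure D2:**
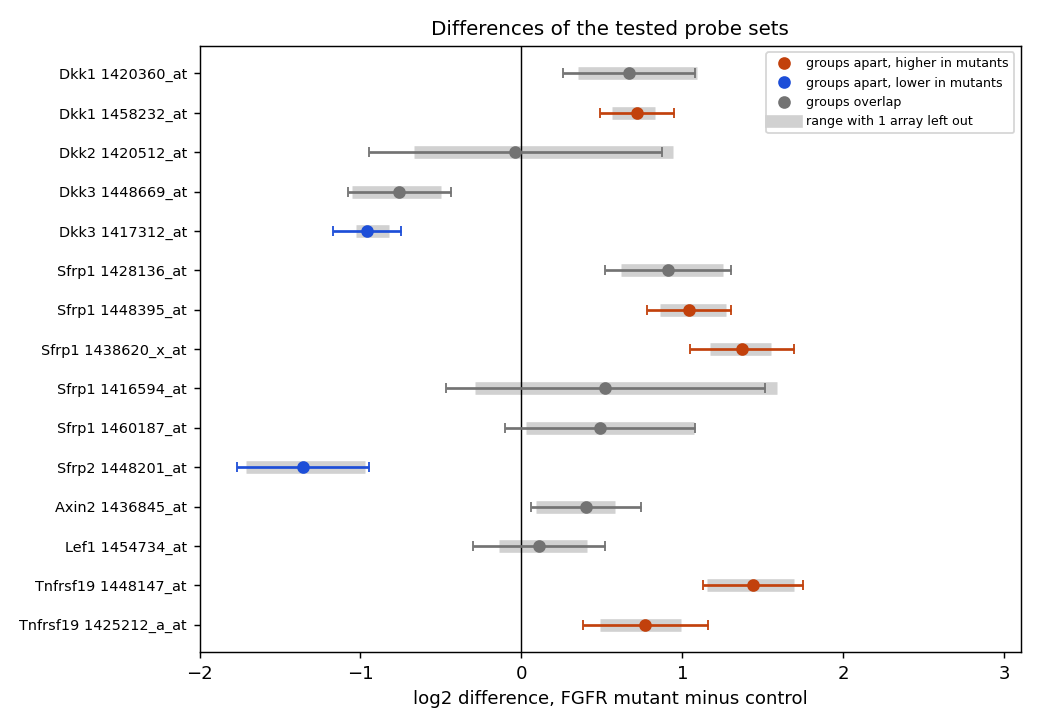
Log2 difference, FGFR mutant minus control (horizontal axis), of the 15 tested probe sets, with limma's SE as error bars and the range with 1 array left out as grey bands. Sfrp1, Tnfrsf19 and the dimmer Dkk1 probe set lie above 0 and Sfrp2 and Dkk3 below it, while the bands of Dkk2, Lef1 and 1 dim Sfrp1 probe set cross 0.

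Among the targets, only Tnfrsf19 had mutant values above all controls. Tnfrsf19, or Troy, is a receptor of the TNF family that beta-catenin signalling induces in several tissues. Its brightest probe set, 1448147_at, had 435.2, 327.5 and 695.4 in the mutants, against 193.3, 146.2 and 171.9 in the controls. The lowest mutant was well above the highest control. The means were 486 ± 189 in the mutants and 170 ± 23.6 in the controls (SD, n = 3 each), a ratio of 2.85 and a log2 difference of 1.44 (SE 0.31, limma adjusted p = 0.516). With 1 array left out, the difference ran from 1.15 to 1.69.

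A second Tnfrsf19 probe set, 1425212_a_at, was dim, with 27.4, 35.0 and 56.4 in the mutants and 15.9, 25.0 and 24.9 in the controls. The groups were apart here too, with a log2 difference of 0.77 (SE 0.39, limma adjusted p = 0.852). The last read 3.5, 1.2 and 19.3 in the mutants and 6.7, 9.0 and 1.1 in the controls and was below the filter.

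Axin2, a scaffold of the complex that breaks down beta-catenin and a widely used readout of the pathway, had 160.1, 150.9 and 297.6 in the mutants, against 177.2, 113.5 and 153.3 in the controls. Mutant 9266 was high, and the other mutant arrays lay within the controls. The log2 difference was 0.40 (SE 0.34, limma adjusted p = 0.852) and 0.09 without mutant 9266. Its second probe set read 1.6 to 17.8 in the mutants and 1.5 to 11.1 in the controls and was not tested. Lef1, a DNA-binding partner of beta-catenin and itself a target, had 37.1, 73.0 and 69.2 in the mutants and 37.1, 77.4 and 51.8 in the controls. The groups covered the same range, with a log2 difference of 0.11 (SE 0.41, limma adjusted p = 0.957), or 0.41 without mutant 8711. Its other probe set was at 1.2 to 5.1 in the mutants and 2.6 to 7.6 in the controls. With these errors, differences of Axin2 and Lef1 of the size seen in Tnfrsf19 were not found, while smaller ones could not be told from the spread between arrays.

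Wnt2b, a ligand of the canonical pathway made in the dorsal eye and its margin, was near background on these arrays. It read 9.9, 2.0 and 8.4 in the mutants and 11.7, 14.6 and 1.8 in the controls. All 6 values were below the filter level, so no difference could be measured.

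Leaving out mutant 8711 gave 7 higher and 3 lower member probe sets at an unadjusted p under 0.05, against 5.01% and 3.7% of all tested probe sets in that fit, and still 0 past an adjusted p of 0.05. The added ones were the 2 dim Sfrp1 probe sets, the dim Tnfrsf19 probe set and the brighter Dkk3 probe set. Across arrays, mutant 9266 had the highest value for 10 of the 15 member probe sets, and it was the highest array for 21.6% of all tested probe sets. Those 10 include every tested probe set of Sfrp1 and of Tnfrsf19, so they are not separate genes.

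Markers of eye tissues are set beside the members here. Bulk tissue cannot tell fewer cells of a type from less RNA per cell. The summed intensity of 13 pigment epithelium markers, all measured, was 24718, 28452 and 40369 in mutant arrays 8711, 9216 and 9266 and 18605, 16973 and 16230 in the controls, and 12 of the 13 were higher in the mutants on average. Mutant 9266 was the highest array for these markers, for the periocular mesenchyme and surface ectoderm sums, and for the brightest probe sets of Tnfrsf19 and Sfrp1. The summed intensity of the 9 measured markers of neural retina progenitors was 3602, 3165 and 3293 in the mutants and 6449, 5600 and 7024 in the controls. None of these markers was at or under the filter level in all arrays. Of the 8 of them that were tested, all but Lhx2 had lower mean values in the mutants, as Sfrp2 and Dkk3 did. Lhx2, an optic cup gene, read 789.1, 716.3 and 1068.5 in the mutants and 975.0, 707.2 and 884.5 in the controls, with the groups overlapping. Sums for macrophage markers were 2601 to 3333 in the mutants and 1625 to 2334 in the controls. Of these 11 markers, all tested, 7 were higher. Their mean log2 value relative to the controls overlapped between groups, with 0.29 to 0.59 in the mutants and -0.62 to 0.31 in the controls. For surface ectoderm the sums were 574 to 1512 in the mutants and 453 to 530 in the controls. The surface ectoderm sums were mostly Krt18, a keratin, with 912.7, 379.3 and 1309.0 in the mutants and 311.3, 249.2 and 272.7 in the controls, and 2 of the 5 tested markers of that list were higher, with a median log2 difference of -0.41. The sums overlapped between groups for endothelium (267 to 522 in the mutants and 366 to 708 in the controls), lens (1460 to 3178.5 in the mutants and 2222 to 3314 in the controls), erythroid cells (17072 to 18370 in the mutants and 13334 to 17828 in the controls) and neural crest (152 to 188 in the mutants and 148 to 195 in the controls), and muscle markers were near background. The part of these tissues in the values of Tnfrsf19, Sfrp1, Sfrp2 and Dkk3 was not tested.

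The genes most like Tnfrsf19 over the 6 arrays, by Pearson correlation of log2 values of the brightest probe sets, were Spsb1 (0.998), Trpm1 (0.995), Bdh2 (0.993), Adhfe1 (0.993) and Wls (0.991). Trpm1, a cation channel of melanocytes and the pigment epithelium, is 1 of the pigment markers above. Those most like the brightest Dkk3 probe set, 1448669_at, were Chac1 (0.996), Hdgfl2 (0.987), Kctd20 (0.986), Cep152 (0.982) and Msmo1 (0.982). That probe set correlated at 0.54 with the other Dkk3 probe set, which had the smallest p of the antagonists, and at 0.98 with Sfrp2, so the likeness is that of 1 probe set. The points are 6 arrays in 2 groups, so a similar difference between groups raises the correlation, though it does not ensure a high one. Wnt2b had no tested probe set and was left out of this comparison.

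**Figure D3:**
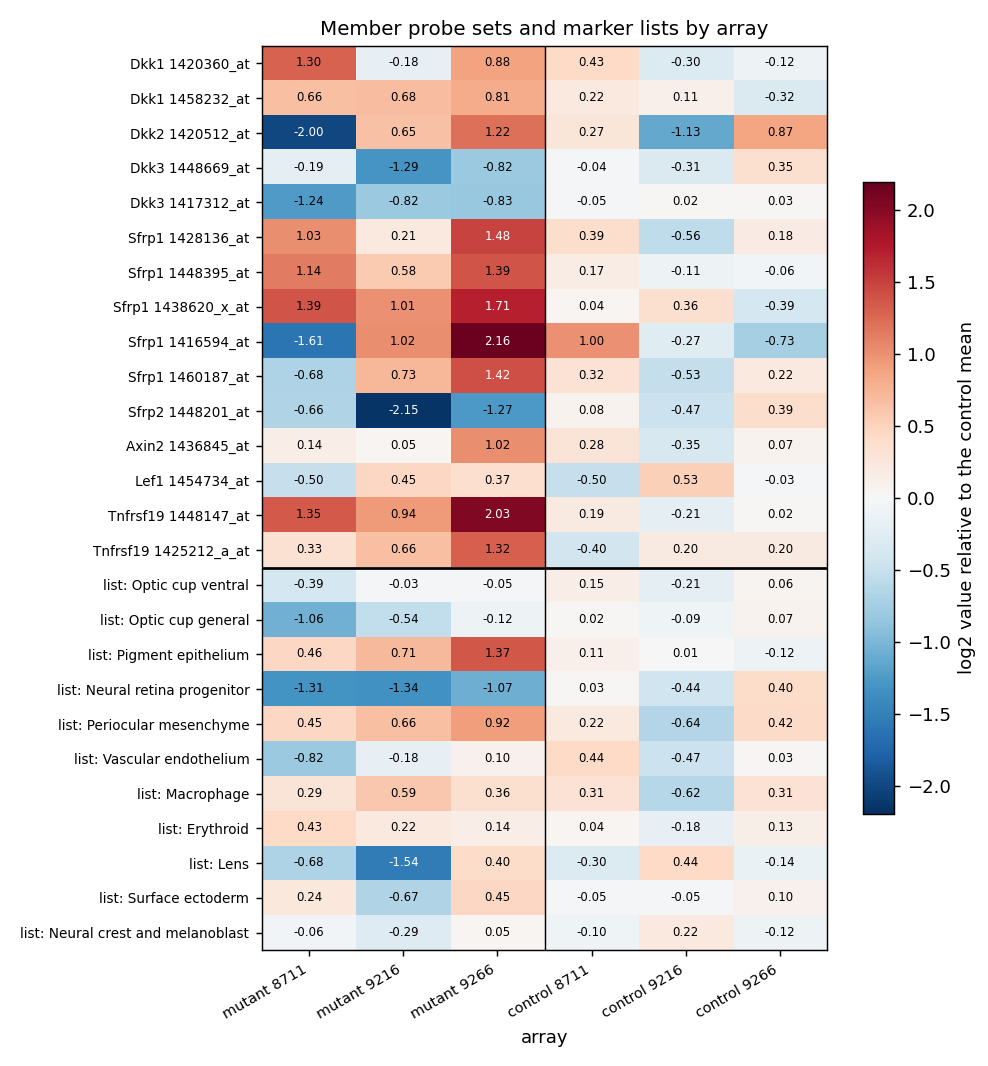
Log2 value relative to the control mean (colour and numbers) of the 15 tested probe sets, above the line, and of the mean of each marker list, below it, in the 3 FGFR mutant arrays (left) and 3 control arrays (right). The pigment epithelium list reads 0.46, 0.71 and 1.37 in the mutant arrays and the neural retina progenitor list -1.31, -1.34 and -1.07.

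Other genes of the pathway were read from 4 lists, each gene by its brightest tested probe set, and none of them passed an adjusted p of 0.05. As background, 53.6% of all 12282 genes had a positive difference and the median over them was 0.03. At an unadjusted p under 0.05, 4.4% of them were higher and 2.52% lower. Without mutant 8711, 670 of them were higher and 487 lower at that level. Of 9 other secreted antagonists tested (16 listed), 4 had higher and 5 lower values, with a median log2 difference of -0.01 (0.15 without mutant 8711) and 1 lower gene at an unadjusted p under 0.05. Without mutant 8711 there were 2, with Shisa2, an inhibitor of Wnt and FGF receptor maturation, at -0.53 (-0.28 with all arrays). The 1 with all arrays was Frzb, another Sfrp-like Wnt-binding protein, with 29.6, 22.5 and 32.1 in the mutants and 51.4, 45.9 and 51.9 in the controls, a log2 difference of -0.8 (SE 0.3). Sostdc1, an inhibitor of Wnt and BMP signals, had a difference of 0.65 (SE 0.39), and Igfbp4, which binds insulin-like growth factors and can bind Wnt receptors, -0.26 (SE 0.16), both with overlapping groups.

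Most other targets and feedback genes were lower on average in mutant arrays. Of 13 tested (18 listed), 4 had higher and 9 lower values, with a median log2 difference of -0.20 (-0.07 without mutant 8711). At an unadjusted p under 0.05, 2 were higher and 5 lower (3 and 5 without mutant 8711). Nrarp, a feedback regulator of Notch signalling, had 90.7, 127.6 and 110.9 in the mutants, against 275.5, 247.3 and 243.5 in the controls, a log2 difference of -1.22 (SE 0.23). Ccnd1, the cyclin D1 gene, is also among the neural retina progenitor markers above. It had 619.2, 293.7 and 409.2 in the mutants, against 1368.1, 707.1 and 1962.2 in the controls, a difference of -1.55 (SE 0.44). In both genes every mutant array was below every control. Jag1, a Notch ligand, had a difference of 0.86 (SE 0.25) with the groups apart.

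The remaining genes of that count, named after their values were seen, were Lgr5, Nkd1, Myc and Id2. Lgr5, a receptor for R-spondins, had 13.4, 75.7 and 79.3 in the mutants and 137.1, 175.4 and 133.4 in the controls, a difference of -1.71 (SE 0.66), or -0.91 without mutant 8711. Nkd1, a feedback inhibitor that binds dishevelled, had 31.5, 89.8 and 113.0 in the mutants and 184.8, 139.0 and 152.9 in the controls, a difference of -1.18 (SE 0.48), or -0.64 without mutant 8711, and its other 3 tested probe sets ran from -0.84 to 0.28. Myc, a growth factor-responsive transcription factor, had -0.82 (SE 0.29) and Id2, an inhibitor of bHLH factors, 0.51 (SE 0.17), with -0.37 and 0.20 for its other 2 tested probe sets. Znrf3, also of that list and named after its values were seen, had 306.7, 338.3 and 346.3 in the mutants, against 219.3, 291.8 and 172.9 in the controls. Its difference was 0.56 (SE 0.25), or 0.62 without mutant 8711, where it joined the higher genes of the count. In the same arrays, Lgr5 and Nkd1 thus read lower in the mutants and Znrf3 higher, while Axin2 and Lef1 overlapped between groups.

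Of 7 other Wnt ligands tested (18 listed), 5 had higher and 2 lower values, with a median of 0.46 (0.26 without mutant 8711). Wnt5a, a ligand mostly of the beta-catenin-independent branch, had 101.0, 69.0 and 116.5 in the mutants and 56.3, 56.1 and 56.2 in the controls, a difference of 0.71 (SE 0.30), and its second probe set had -0.03. Without mutant 8711 no ligand had an unadjusted p under 0.05. Wnt9a had 39.2, 14.2 and 48.8 in the mutants and 14.7, 14.8 and 14.7 in the controls, a difference of 0.96 (SE 0.49). All its control values lay under the filter level of 15.1, as did the control mean of Wnt6 (14.8), a ligand named outside the rule. Both passed the filter through their mutant values, which favours positive differences among the tested ligands. Wnt5b had 0.46 (SE 0.27) and, like Wnt9a, overlapping groups. Wnt5b had 0.26 without mutant 8711 and -0.07 for its other tested probe set. Of 28 genes of the pathway core tested (30 listed), 11 had higher and 17 lower values, with a median of -0.11 (-0.01 without mutant 8711), and 3 of them, 1 higher and 2 lower in the mutants, had an unadjusted p under 0.05 (1 and 1 without mutant 8711).

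In the core, Wls, which carries Wnts to the cell surface, had 629.0, 509.9 and 798.2 in the mutants, against 359.0, 283.1 and 286.7 in the controls. Its groups were apart, with a difference of 1.04 (SE 0.24), and its other 2 tested probe sets had 0.48 and 0.76. Tle1, a Groucho co-repressor that TCF factors recruit, had 53.3, 83.7 and 97.4 in the mutants, against 173.7, 221.8 and 237.5 in the controls, a difference of -1.44 (SE 0.31), with -0.42 for its second probe set. Csnk1e, a kinase of dishevelled, had -0.93 (SE 0.39), or -0.53 without mutant 8711. Ctnnb1, which encodes beta-catenin, had 7467.5, 8326.7 and 6877.8 in the mutants and 7359.9, 7705.3 and 7815.5 in the controls, and its difference of -0.02 (SE 0.11) lay within the spread, while its other 2 tested probe sets ran from -1.81 to -0.17. It was named outside the rule, as the centre of the pathway.

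**Figure D4:**
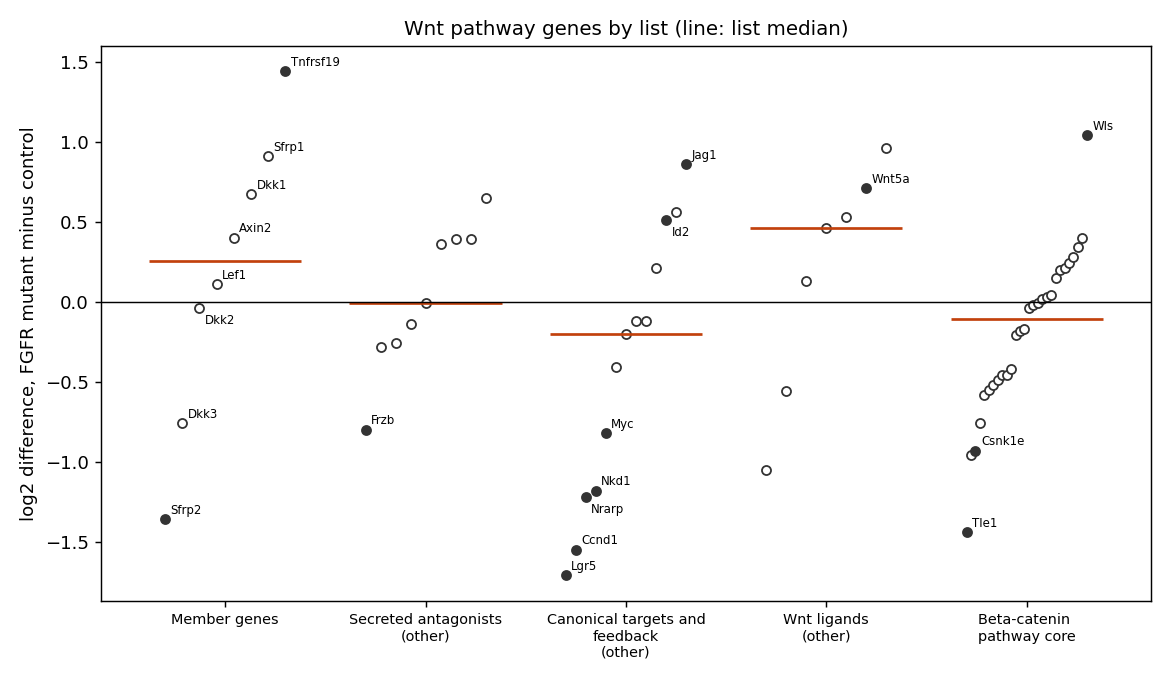
Log2 difference, FGFR mutant minus control (vertical axis), of each gene by its brightest tested probe set, for the 8 tested member genes and 4 lists of other Wnt genes, with filled points at an unadjusted limma p under 0.05 and the list median as a line. The medians are 0.26 for the members, -0.01 for other antagonists, -0.20 for other targets, 0.46 for other ligands and -0.11 for the core.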

How the data were processed

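The series held 6 Affymetrix arrays, 3 FGFR mutant and 3 control, grouped by genotype in the labels. Per the labels' protocols, RNA was extracted with Trizol and labelled with biotin, and MAS5 is named in the submitters' processing notes, whose version is not given in the sources used here. Linear intensities were deposited, with a 2% trimmed mean of 150 in every array, so they were already scaled by the authors and were used as they are. Of 45101 probe sets, 64 were manufacturer controls, left out of the tests, and 34945 probe sets carried exactly 1 symbol in the platform table.

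Values were taken as log2(intensity + 1.7), where 1.7 is the 10th percentile over all arrays. Probe sets with a mean under the 40th percentile (4.07 on the log2 scale, an intensity of 15.1) were left out, leaving 27022. Groups were compared with limma 3.58.1 in R 4.3.3 (eBayes with trend and robust, statmod 1.5.0) with Benjamini-Hochberg adjustment over all of them at 0.05. In simulated data with 200 of 27022 probe sets changed, 0% of the 2-fold and 12% of the 4-fold changes were called, along with 2 false ones, so a gene that missed the threshold may still differ. Plots were made in matplotlib 3.10.9 (Python 3.11.15).

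The genes and lists were chosen with earlier results of these data known. Named were all member probe sets, up to 3 genes of each other Wnt list (past the threshold or, with none, of the smallest p), and the 5 genes most like the antagonist and the target of the smallest p. Marker lists were summed over each gene's brightest probe set. Samples of the same number deviated from their group means with correlations of 0.0493 (8711), 0.481 (9216) and -0.113 (9266). For samples of unlike number the correlations ran from -0.453 to 0.346, and only that of 9216 lay above this range. The numbers were therefore not taken to pair the samples in the main fit. Alternatives were other added values, normalizations, filters, variance models, array weights, a threshold of 0.10, the number as a block, and leaving out arrays.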

Additional observations from a re-analysis of the deposited data

How the results depend on the processing

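With no array left out, 0 member probe sets passed an adjusted p of 0.05 in limma under every alternative except array weights. There 1 did, Sfrp2 (-1.90, limma adjusted p = 0.0308, against up to 0.999 over its alternatives), and 184 of all probe sets passed. In that fit mutant 8711 had a weight of 0.151. Control 8711 had 5.98, against 0.625 for control 9216 and 1.52 for control 9266, so the weighted control values rest mostly on 1 array. With the unweighted arrays and a limma adjusted p of 0.1 as the threshold, 0 of the members and 0 of all tested probe sets passed. Leaving out 1 array gave 0 member probe sets in each case and 0 to 1 of all probe sets. The 1 was Xist, the RNA of X inactivation, without mutant 8711, and again 1, Xist, without both arrays numbered 8711. The sex of the embryos was not part of the model, and its part in the group differences was not tested. The count of higher member probe sets at an unadjusted p under 0.05 ran from 3 to 7 with 1 array left out, with 7 without mutant 8711. The count of lower ones ran from 1 to 3, with 1 without control 9266, where Sfrp2 was no longer among them, and was 4 with no filter, which also tests Sfrp5. With the replicate block, 6 were higher and 3 lower, and 0 passed adjustment. The block lowered limma's SE for Sfrp2 from 0.41 to 0.25 and for Sfrp1 1428136_at from 0.39 to 0.21. It raised the SE for Sfrp1 1438620_x_at from 0.32 to 0.36 and for Sfrp1 1416594_at from 0.99 to 1.13. Shares over all tested probe sets are given only for the fit without mutant 8711, 5.01% higher and 3.7% lower. The counts of the other alternatives thus have no background beside them.

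The sign changed for 4 probe sets, none of which passed an adjusted p of 0.05 under any alternative. At an unadjusted p under 0.05, the brighter Dkk1 probe set passed with the replicate block (0.67) and without mutant 9216 (1.09), and the dim Sfrp1 probe set 1416594_at without mutant 8711 (1.59) and without both arrays numbered 8711 (2.09). Dkk2 had 0.20 with quantile normalization, 0.12 with median centring, 0.39 with array weights and 1.07 without both arrays numbered 8711, and ran from -0.67 to 0.94 with 1 array left out. The brighter Dkk1 probe set had -0.04 with array weights. With 1 array left out, Lef1 ran from -0.14 to 0.41 and the dim Sfrp1 probe set 1416594_at from -0.29 to 1.59. The cause was not tested. The other 11 tested probe sets kept their sign under every alternative run. Median centring moved the median difference of all tested probe sets to 0.11, against -0.05 as deposited.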
